A study of Mus musculus with 12 samples.

Results

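The data described here are 4 of the 12 RNA sequencing libraries of a mouse cell line study of uniSTING, an engineered mimic of the innate immune adaptor STING that was delivered as mRNA. They were chosen by their labels alone: 2 libraries labelled DC2.4 and given uniSTING mRNA, compared with 2 libraries labelled DC2.4 and given mRNA for the fluorescent protein EGFP, called Mock. DC2.4 is an immortalized mouse dendritic cell line, and all 4 libraries carry the genotype label WT. The mRNA was added either with a TransIT-mRNA reagent or inside SS-OP lipid nanoparticles; the labels do not say which was used for which library, and they give no treatment time. Each group holds a preparation 1 and a preparation 2. Nothing in the labels tells whether the preparations were grown apart, and a p-value here therefore speaks of the scatter among these libraries, possibly a technical one. Cells were kept in DMEM with fetal bovine serum during treatment. Libraries held 17.5 and 22 M counts in Mock and 18.8 and 25.1 M in uniSTING, and 3 counts, taken as the floor, correspond to 0.12 to 0.171 CPM (counts scaled to a library total of 1 M).

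The label did not match the marker genes. Epcam, which encodes an epithelial adhesion molecule, stood at 288 and 286 CPM in Mock and at 313 and 318 CPM in uniSTING, and Krt8, which encodes a simple epithelial keratin, had 22211 to 32672 counts in every one of the 4 libraries. Ptprc, which encodes the leukocyte antigen CD45, had 8 and 0 counts in Mock and 19 and 0 in uniSTING, and Spi1, a transcription factor gene that defines myeloid cells, had 1 to 5. Summed over Epcam, Krt8, Krt18 and Cdh1, the 4 libraries lay between 3390 and 3430 CPM, against at most 3.01 CPM in each of the other 8 libraries of the series, 4 of which also carry the DC2.4 label. Of 25 leukocyte and myeloid markers, 16 had at most 20 counts in each of the 4 libraries and 1 was at 0 in all of them. Cd48, H2-Aa, Ciita and Flt3, among the 16, also had at most 17 counts in each of the other 8 libraries and so do not separate the libraries. The sum of those 25 markers was 164 to 184 CPM in Mock and 198 to 222 CPM in uniSTING, compared with 9850 to 16100 CPM in the other 8 libraries. Lcp1, an actin-bundling gene, made up the greater part of it, at 117 and 111 CPM in Mock and 135 and 138 CPM in uniSTING. The libraries are therefore called by their label throughout, and nothing here is a statement about dendritic cells. The libraries labelled 4T1, a breast cancer line, carried the leukocyte genes instead.

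STING is a membrane adaptor that recruits the kinase TBK1, which phosphorylates the transcription factor IRF3 and so switches on type I interferon genes. Secreted interferon then binds its receptor, JAK kinases phosphorylate STAT proteins, and these join IRF9 in a complex called ISGF3. That complex binds the interferon-stimulated response element, a paired GAAA motif near the start of many antiviral genes, and epithelial cells as well as leukocytes can carry out this programme.

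The promoters below belong to 5 genes that rose, and they are shown because each holds the spaced pair GAAANNGAAA on one strand or the other, a core of the response element. Capitals mark the matches. The windows run from 250 bases before to 50 after the gene start and are from RefSeq on build GRCm38.p6, with sequence given on the strand of the gene.
Isg15, chr4:156200769-156201068, minus strand: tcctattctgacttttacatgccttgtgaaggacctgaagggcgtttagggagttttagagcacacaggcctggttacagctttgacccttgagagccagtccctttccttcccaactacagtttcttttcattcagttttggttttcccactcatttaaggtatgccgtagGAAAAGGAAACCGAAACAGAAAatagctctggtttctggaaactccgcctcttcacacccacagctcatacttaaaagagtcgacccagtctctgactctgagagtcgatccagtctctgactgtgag
Ifit1, chr19:34640639-34640938, plus strand: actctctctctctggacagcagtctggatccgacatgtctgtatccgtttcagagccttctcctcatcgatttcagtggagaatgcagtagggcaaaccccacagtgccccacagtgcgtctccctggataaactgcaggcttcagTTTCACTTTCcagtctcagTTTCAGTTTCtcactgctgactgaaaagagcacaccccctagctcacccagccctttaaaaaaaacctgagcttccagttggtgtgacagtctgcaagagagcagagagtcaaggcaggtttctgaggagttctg
Oas1a, chr5:120907476-120907775, minus strand: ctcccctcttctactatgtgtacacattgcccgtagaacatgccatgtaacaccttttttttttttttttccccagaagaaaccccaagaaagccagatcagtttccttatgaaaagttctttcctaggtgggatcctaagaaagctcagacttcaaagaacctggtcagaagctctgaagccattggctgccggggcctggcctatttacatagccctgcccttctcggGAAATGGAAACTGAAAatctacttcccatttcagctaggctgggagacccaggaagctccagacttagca
Cxcl10, chr5:92348840-92349139, minus strand: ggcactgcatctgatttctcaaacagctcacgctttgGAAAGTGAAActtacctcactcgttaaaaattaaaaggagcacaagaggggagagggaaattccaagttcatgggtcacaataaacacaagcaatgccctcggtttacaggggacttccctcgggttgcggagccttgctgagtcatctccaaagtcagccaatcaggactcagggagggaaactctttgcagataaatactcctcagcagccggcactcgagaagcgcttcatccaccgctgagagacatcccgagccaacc
Rsad2, chr12:26456403-26456702, minus strand: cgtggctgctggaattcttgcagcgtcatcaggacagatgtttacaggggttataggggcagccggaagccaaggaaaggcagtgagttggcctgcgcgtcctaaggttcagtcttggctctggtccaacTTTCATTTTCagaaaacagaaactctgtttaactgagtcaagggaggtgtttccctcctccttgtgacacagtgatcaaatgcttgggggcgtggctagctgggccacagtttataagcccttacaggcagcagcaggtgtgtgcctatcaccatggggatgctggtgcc

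The motif was searched as GAAANNGAAA and as its reverse complement TTTCNNTTTC, with overlapping matches counted. Isg15 had 3 overlapping matches, starting at -78, -72 and -66 from the gene start; Ifit1 had 2, at -104 and -85; Oas1a had 2, at -20 and -14; Cxcl10 had 1 at -213 and Rsad2 had 1 at -120. Among all 32851 windows in the table, 3.44% held a match. Among tested genes with a window the share was 5.26% of those called higher, 10.9% of those called higher by at least 2-fold (20 of 184), 2.83% of those called lower and 3.63% of those not called. The list of antiviral effectors described next had a match in 13 of 27 windows (48.1%), a list whose members are known for this element. A match describes these letters in this window and is not evidence of binding.

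Interferon-induced antiviral genes made up the clearest group of rises. edgeR's quasi-likelihood test (Benjamini-Hochberg adjusted p below 0.05, here "called") found 28 of 33 tested effectors higher, 17 of them at least 2-fold, and 1 lower, with a median log2 fold change of 1.02. Over all 14863 genes tested, 20.8% were called higher and 20.9% lower, 2.19% and 1.46% with a change of at least 2-fold, and the median log2 fold change was 0.00. The list was assembled with earlier results of these data known, so its direction is a description.

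**Figure D1:**
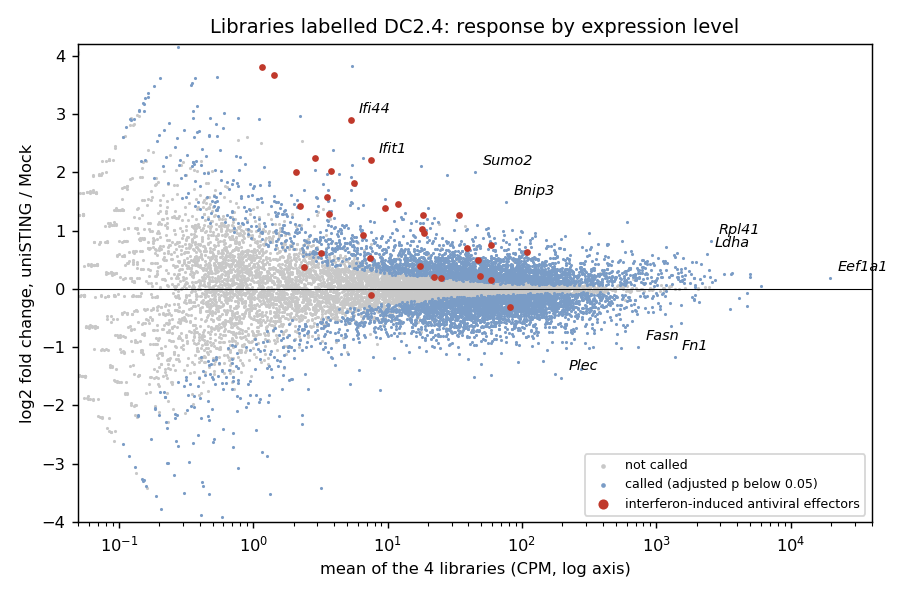
Log2 fold change of uniSTING over Mock (vertical axis) against the mean level of the 4 libraries in CPM (horizontal log axis) for the genes tested; blue points passed an adjusted p of 0.05 and red points are the interferon-induced antiviral effectors. Low genes beyond the vertical range, Oas2 among them, are not drawn, and fitted values of genes at 0 in a group depend on the prior count. Most red points lie above 0 and below a level of 100 CPM, while the abundant genes at the right (Eef1a1, log2 fold change 0.18; Fn1, -1.18) moved less or fell.

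Ifit1 (ENSMUSG00000034459, GRCm39 chr19:34618271-34627409), whose product binds foreign RNA lacking a host cap, had 55 and 51 counts in Mock and 230 and 312 in uniSTING. Its level was 2.73 ± 0.586 CPM in Mock and 12.3 ± 0.169 CPM in uniSTING (SD, n = 2; log2 fold change 2.20, SE 0.19, adjusted p = 5.12e-07), with no overlap between the groups. Ifit1 was the largest rise among the ranked genes of at least 10 CPM in the higher group. The ranking took called genes with the same direction in both preparations. It left out unnamed gene models, pseudogenes, antisense and mitochondrially encoded genes. Of 44 called genes at that level that rose by at least 2-fold, 33 were ranked. Isg15 (ENSMUSG00000035692, GRCm39 chr4:156283912-156285253), which encodes a ubiquitin-like modifier, stood at 10.3 and 11.4 CPM in Mock and at 26.3 and 25.5 CPM in uniSTING (a rise of 1.27 on the log2 scale, SE 0.12, adjusted p = 8.27e-07). Oas1a (ENSMUSG00000052776, GRCm39 chr5:121034319-121045584), a member of the oligoadenylate synthetases that activate RNase L, stood at 5.94 and 4.81 CPM against 12.7 and 14.5 CPM (log2 fold change 1.38, SE 0.14, adjusted p = 1.66e-06). In each of these genes both uniSTING libraries lay above both Mock libraries. The genes were picked as called rises, and the share of all genes without overlap is not given.

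Other effectors rose from lower or higher starting levels. Rtp4, an interferon-induced antiviral gene, went from 7.60 and 5.45 CPM to 16.4 and 18.6 CPM (log2 fold change 1.45, adjusted p = 1.22e-05). Ifi27 went from 17.9 and 21.96 CPM to 49.2 and 46.4 CPM (1.27, adjusted p = 8.64e-09). Mx2, which encodes a dynamin-like antiviral GTPase, had 4 counts in each Mock library and 51 and 64 in uniSTING. Oas2 had 0 counts in both Mock libraries and 16 and 19 in uniSTING, which is at least 10.5-fold higher when the Mock group is set to the floor of 3 counts over the group. Oas3 rose by 2.24, Xaf1 by 1.82 and Herc6 by 0.92 on the log2 scale. The membrane restriction genes Ifitm3, Bst2 and Ifitm2, together with Ifi27 the list members with the smallest adjusted p, rose by 0.64, 0.75 and 0.50. With the trends on mRNA length and GC content removed, described below, Ifitm3 and Bst2 stood at 0.22 and 0.42, and Ifitm2 at 0.10 and no longer called. The 1 called fall was that of Samhd1, which encodes a nucleotide-hydrolysing restriction factor, at 88.2 and 93.2 CPM in Mock and 73.5 and 70.8 CPM in uniSTING (log2 fold change -0.32, adjusted p = 1.22e-05). The Oas, Ifit and Gbp genes have close copies in the mouse genome, so their values are uncertain where reads could not be placed uniquely.

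Upstream of the effectors, the transcription factors of the second wave rose more than the receptor and kinase genes. Irf7 (ENSMUSG00000025498, GRCm39 chr7:140842619-140846394), which amplifies interferon production, had 28 and 53 counts in Mock and 182 and 199 in uniSTING (log2 fold change 2.12, SE 0.17, adjusted p = 2.63e-07). Irf9, the DNA-binding part of ISGF3, went from 8.63 and 10.1 CPM to 20.3 and 20.5 CPM (1.14, SE 0.11, adjusted p = 1.33e-06), and its partner Stat2 rose by 0.48 (adjusted p = 0.000532). Usp18, which removes ISG15 and dampens receptor signalling, had 11 and 9 counts against 63 and 115 (2.97, SE 0.37, adjusted p = 1.67e-05). Jak1 fell by 0.26 and the receptor chain gene Ifnar1 by 0.16, and Socs1 stood at 0.40 without passing. In all, 6 of 19 receptor and JAK-STAT genes were called higher and 5 lower; with the mRNA length and GC trends removed the counts were 7 and 2, and Jak1 stood at -0.14, while Ifnar1 (-0.08) and Tyk2 (0.00, from -0.27) were not called.

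Of 14 genes listed as sensors of nucleic acid or their cofactors 10 rose and 1 fell. The 3 RIG-I-like receptors all rose: Dhx58, which encodes LGP2, by 1.10, Ifih1, which encodes MDA5, by 0.55 and Ddx58, which encodes RIG-I, by 0.54. The helicase gene Ddx60 went from 6.91 and 7.08 CPM to 15.3 and 15.8 CPM (1.17, SE 0.14, adjusted p = 1.04e-05), Eif2ak2, which encodes the RNA-activated kinase PKR, rose by 0.49, and Zbp1, a sensor of Z-form nucleic acid, by 1.23 from 22 and 24 counts. Cgas, which encodes the enzyme that makes the natural STING ligand, went the other way, at 21.6 and 22.6 CPM in Mock and 18.5 and 19.5 CPM in uniSTING (log2 fold change -0.20, adjusted p = 0.0469; with the mRNA length and GC trends removed, -0.18, adjusted p = 0.0878). The interferon-induced GTPases attack the membranes around intracellular pathogens. Here 5 of 13 were called higher and 0 lower. Irgm2 stood at 1.48, Igtp at 1.43, Gbp7 at 1.03, Gbp3 at 1.01 and Irgm1 at 0.36 (0.23 after removal of the trends). Iigp1, at 2.60, did not pass (3 and 7 counts against 41 and 23; adjusted p = 0.0626). Fitting the 4 libraries alone called 9 of the 13. Among 20 nuclear PARP, SP100 and TRIM genes, 6 were higher and 4 lower, shares near the 20.8% and 20.9% over all genes. Phf11d, an interferon-induced gene, had 38 and 64 counts against 147 and 215 (1.69), and Sp100, a nuclear body gene, and Parp9 rose by 0.72 and 0.54. The 4 lower genes were Trim56, Znfx1, Pml and Adar. With mRNA length and GC trends removed the first 3 were not called and Adar was called higher, at 0.16. The list then had 8 higher and 0 lower, with a median of 0.23, where 17.8% and 15.5% of all genes were called.

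Secreted signals rose in 14 of 22 tested chemokine and cytokine genes and fell in 2, with a median log2 fold change of 0.49. Ligands of CXCR3, the receptor that draws activated T cells, were among the largest: Cxcl11 had 1 count in each Mock library and 23 and 44 in uniSTING, and Cxcl10 27 and 23 against 126 and 163. Of 4 listed ligands of CXCR2, which draws neutrophils, Cxcl1 and Cxcl5 rose, while Cxcl2 (0.60, adjusted p = 0.394) and Cxcl3 (0.64, adjusted p = 0.323) did not pass. Cxcl1 went from 22.1 and 19.6 CPM to 35.4 and 36.3 CPM (0.80, adjusted p = 0.000594) and Cxcl5 from 12.7 and 13.2 CPM to 25.5 and 26.1 CPM (1.01, adjusted p = 0.00069). The epithelial alarmin gene Tslp went from 15.5 and 16.5 CPM to 30.6 and 29.8 CPM (0.93, adjusted p = 6.8e-05), and Cxcl16 rose by 0.52. Csf2, which encodes GM-CSF, had 1 and 3 counts against 10 and 18. Csf1, the macrophage growth factor gene, fell from 262 and 258 CPM to 169 and 166 CPM (log2 fold change -0.62, SE 0.03, adjusted p = 7.47e-10), and it was the most abundant of these named genes. Among those called higher, Ccl2 (log2 fold change 0.47) and Ccl5 (0.69) were at 0.05 and 0.23 and not called once the mRNA length and GC trends were removed, and Csf2 and Il34 were not called there either. Cxcl1, Cxcl5 and Tslp then stood at 0.44, 0.70 and 0.57. Over the list 10 were then higher and 1 lower, with a median of 0.35.

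**Figure D2:**
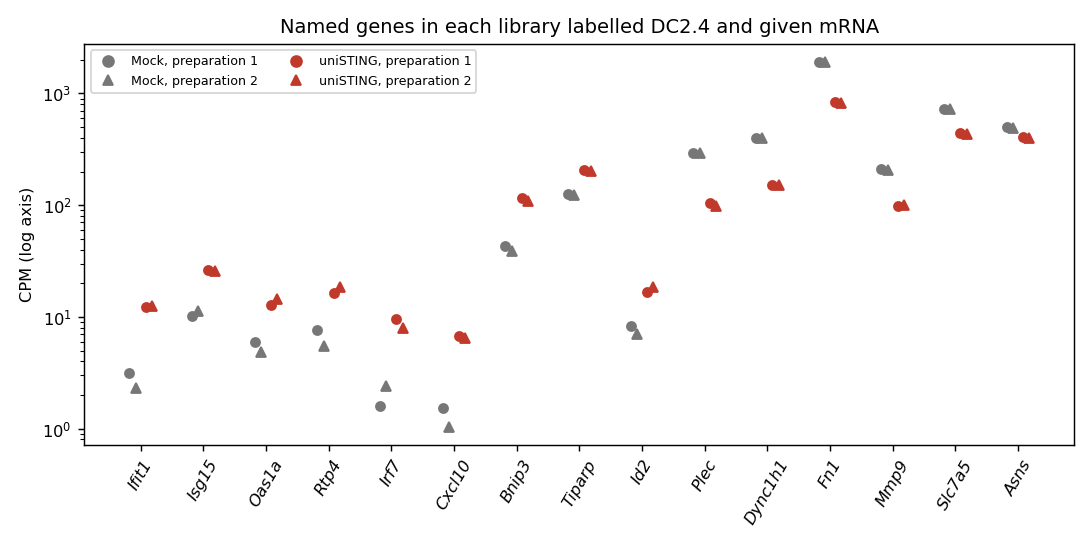
Level of 15 named genes in each of the 4 libraries, in CPM on a log axis; grey is Mock, red is uniSTING, circles are preparation 1 and triangles preparation 2. The groups do not overlap for any of the genes drawn. These were picked among called genes, and the share of all genes without overlap is not given. The genes at the left, Ifit1 to Cxcl10, are interferon-induced and rose from low levels, and those at the right, Plec to Asns, fell from high ones.

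The response across the whole transcriptome was broad and mostly small. Of the 6196 called genes, 4851 (78.3%) changed by less than 1.5-fold, and the median size of a called change was 0.341 on the log2 scale. The share called grew with level, from 9.25% of genes below 1 CPM to 76.6% of genes of 100 CPM or more. Among the 9090 genes of 10 CPM or more, 28.2% were called higher and 30.0% lower, but 44 (0.484%) and 25 (0.275%) by at least 2-fold. The counts of changes of at least 2-fold, 325 higher and 217 lower, were 208 higher without the Mock library of preparation 2 and 130 lower without the uniSTING library of preparation 2. Summed over the genes with a higher mean CPM in uniSTING, the gains came to 8.03% of all counts. These are bulk libraries, in which fewer cells of a kind and less RNA per cell cannot be told apart. Transcripts typical of other tissues summed to 347 and 204 CPM in Mock and 424 and 228 CPM in uniSTING. Tnnt2, a troponin gene, held 173 to 201 CPM of this in every library. The insulin gene Ins2 had 1226 and 2117 counts in preparation 1 and 0 in both preparation 2 libraries, and 42 called genes had at most 3 counts in both preparation 2 libraries; their part in those calls was not tested. In the other groups of the series Ins2 likewise had 171 to 1296 counts in preparation 1 and 0 in preparation 2. Sftpc, Scgb1a1 and Gcg also had counts in preparation 1 of every group and 0 in preparation 2. In 3 of the 6196 called genes the direction differed between the preparations.

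Beyond the antiviral genes, the largest rises among the ranked genes of 10 CPM or more were of several kinds. Bnip3 (ENSMUSG00000078566, GRCm39 chr7:138492565-138511248), a mitophagy gene induced by low oxygen, went from 42.9 and 38.6 CPM to 116 and 108 CPM (log2 fold change 1.48, SE 0.06, adjusted p = 1e-10). P4ha2, which encodes a collagen prolyl hydroxylase, went from 8.0 and 7.85 CPM to 19.1 and 19.3 CPM (1.30), and Espn, which encodes the actin bundler espin, from 4.51 and 5.26 CPM to 13.0 and 15.3 CPM (1.55). Id2, an inhibitor of helix-loop-helix factors, had 145 and 155 counts in Mock and 315 and 463 in uniSTING (1.24, adjusted p = 1.95e-07). Sumo2, which encodes a small ubiquitin-like modifier, had 331 and 393 counts in Mock and 947 and 2330 in uniSTING (2.00, SE 0.24), an uneven rise in a gene with close copies in the genome. Cyp1b1, a cytochrome P450 gene controlled by the aryl hydrocarbon receptor, went from 13.5 and 13.7 CPM to 33.0 and 29.3 CPM (1.21, adjusted p = 9.25e-05). Chosen after its values were seen, Tiparp, another target of that receptor, went from 126 and 124 CPM to 208 and 204 CPM (0.74, adjusted p = 1.23e-09). Further targets were low, with Ahrr at 2 and 3 counts against 4 and 5 and Aldh3a1 at 6 and 9 against 17 and 16, and neither passed; the receptor gene Ahr stood at -0.39 (adjusted p = 0.0535).

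By CPM gained, abundant housekeeping genes led, with unnamed gene models, pseudogenes, antisense and mitochondrially encoded genes left out of the ranking. Eef1a1, which encodes the elongation factor that brings tRNA to the ribosome, gained 2238 CPM (from 18577 ± 21.8 to 20814 ± 14.2 CPM), a log2 fold change of 0.18 that went to 0.02 with mRNA length and GC trends removed. Rpl41 gained 1396 CPM (log2 fold change 0.82), Ldha 945 CPM (0.60), Pgk1 582 CPM (0.61), Tpt1 609 CPM (0.43), Rplp0 654 CPM (0.28), Rpl19 601 CPM (0.46), Rpsa 636 CPM (0.20) and Pkm 566 CPM (0.25). Lgals1, which encodes a galectin, gained 824 CPM at a log2 fold change of 0.26, but its direction reversed to -0.02 with the exonic length trend removed and to -0.07 with the mRNA length and GC trends removed. The losses by CPM, ranked in the same way, were led by Fn1, Eef2, Pabpc1, Itga3, Flna, Actb, Fasn, Myh9, Ccnd1 and Vim. Eef2, the translocation factor, fell by 0.29 on the log2 scale and Pabpc1, the cytoplasmic poly(A)-binding protein gene, by 0.34, and both remained called with the mRNA length and GC trends removed, at -0.19 and -0.38. After that removal Rpl41, Rplp0, Rpl19 and Rpsa stood at 0.40, 0.09, 0.11 and 0.09, and Itga3 at -0.30. Ribosomal protein genes such as Rpl41 have many copies, and their values carry that uncertainty.

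Size of the transcript moved with the response. Across 10846 protein-coding genes of 1 CPM or more, Spearman's rho between log2 fold change and coding length was -0.472, with mRNA length -0.484, with untranslated length -0.253 and with GC content -0.117, as a description across genes of the same libraries. When these genes were cut into 10 bins of equal size by coding length, then in the bin of the shortest (median 0.381 kb) the median log2 fold change was 0.249, and 54.2% were called higher and 7.74% lower. In the bin of the longest (median 4.69 kb) it was -0.369, with 2.21% higher and 73.7% lower. Removing the trend on exonic length left a rho of -0.252 with coding length, and removing those on mRNA length and GC content together left -0.0835. The trends were fitted to these same libraries, so a rho nearer to none follows from the removal. Any response of the cells that varies with length or GC content is taken out with the trend. After the second removal 17.8% of genes were called higher and 15.5% lower, 1964 higher and 1787 lower in both fits, while 73 went from higher to lower and 128 from lower to higher. The libraries labelled 4T1 had a rho of -0.122 with coding length. Whether the trend came from the cells, the RNA or the library preparation was not tested.

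**Figure D3:**
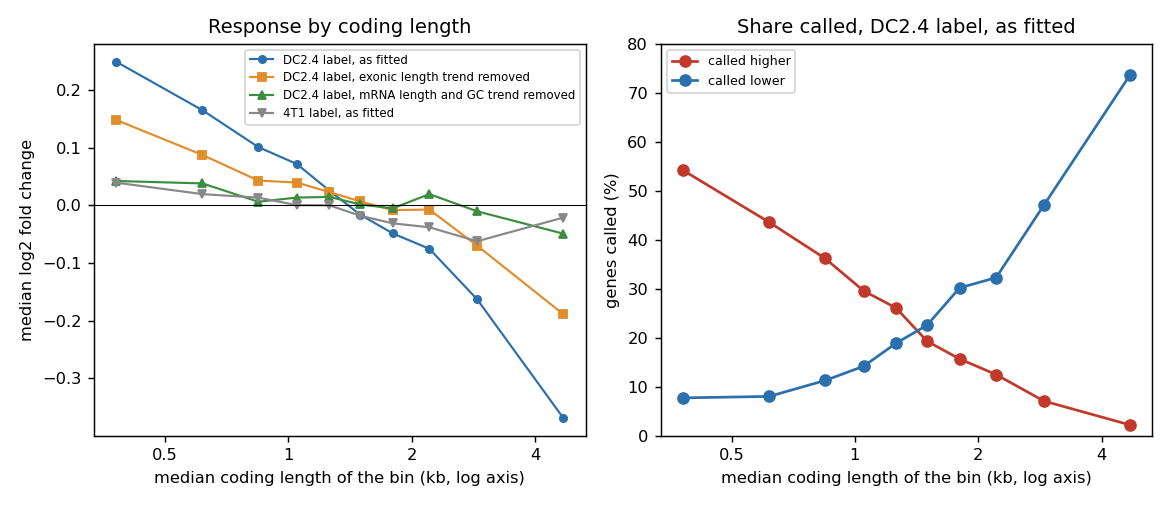
Left, median log2 fold change of uniSTING over Mock in 10 bins of genes ordered by coding length (horizontal log axis, kb), for the libraries labelled DC2.4 as fitted and after removal of each trend, and for the libraries labelled 4T1; right, percent of genes called higher and lower in the same bins. The fitted medians fall from 0.249 in the shortest bin to -0.369 in the longest, and after removal of the mRNA length and GC trends they lie between 0.0422 and -0.0492. The trends were fitted to these same libraries, so the flatter line follows from the removal.

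Genes for very large proteins fell together. All 31 tested members of a list of giant scaffolds, motors and ligases were called lower, 7 by at least 2-fold, with a median log2 fold change of -0.81; with exonic length removed 26 were lower and 0 higher, and with mRNA length and GC removed 20 were lower and 3 higher, with a median of -0.24. Plec, the linker of keratin filaments to junctions, has 14073 coding bases and showed a fall of 0.64 after the second removal, from 1.52 before. That removal capped mRNA length at an upper limit, so the longest transcripts may be corrected too little. Dync1h1, the heavy chain of the dynein motor, went from 401 and 399 CPM to 152 and 153 CPM (log2 fold change -1.37, and -0.59 after removal). Ubr4, a ubiquitin ligase gene, went from 135 and 132 CPM to 55.2 and 55.0 CPM (-1.25, and -0.46), and Ahnak from -0.93 to -0.30. Lrp1, an endocytic receptor gene, stood at 87.4 and 87.1 CPM in Mock and at 32.9 and 29.6 CPM in uniSTING. Hspg2, which encodes the matrix protein perlecan, went from 252 and 268 CPM to 92.7 and 94.2 CPM, and the cadherin gene Fat1 from 203 and 204 CPM to 84.0 and 86.5 CPM; DESeq2 called neither (adjusted p = 0.533 and 0.755). After the second removal Lrp1, Hspg2 and Fat1 stood at -0.63, -0.58 and -0.50. Vps13b, Myo5a and Nbeal2, which encode a lipid transfer protein, a myosin and a vesicle trafficking protein, were called lower as fitted and higher after the second removal.

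Coding length varied among the other large falls. Ccn4, a matricellular gene induced by Wnt signalling with 1101 coding bases, went from 71.4 and 70.6 CPM to 28.9 and 28.6 CPM (log2 fold change -1.28, SE 0.09, adjusted p = 3.02e-07), and was at -1.18 after removal of the mRNA length and GC trends. Lpp, a focal adhesion gene with 1839 coding bases, fell by 1.12 and stood at -0.64 after removal. Fam120c, Zc3h13, an RNA methylation cofactor gene, and the receptor gene Notch2 have 3273, 5187 and 7419 coding bases; they fell by 1.17, 1.11 and 1.10, and by 0.998, 0.84 and 0.48 after removal. Mmp9, which encodes a gelatinase, went from 212 and 208 CPM to 98.7 and 100 CPM (-1.06, adjusted p = 1.71e-10) and stood at -0.97.

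Chromatin regulators, a group of long genes (median coding length 5.74 kb), were lower in 29 of 34 cases and higher in 1, with a median of -0.54. Kmt2a, a histone methyltransferase gene, went from 65.8 and 67.2 CPM to 36.2 CPM in both uniSTING libraries (-0.86). The remodeller genes Ep400 and Chd4 and the maintenance methyltransferase gene Dnmt1 were among those with the smallest adjusted p, at -0.82, -0.64 and -0.66. After removal of the mRNA length and GC trends 15 were lower and 3 higher, with a median of -0.13, and Kmt2a, Ep400, Chd4 and Dnmt1 stood at -0.15, -0.22, -0.27 and -0.35. DNA damage checkpoint and repair genes, also long, were lower in 16 of 27 cases and higher in 1. Fancd2, a crosslink repair gene, stood at -0.60, the checkpoint kinase gene Atr at -0.56, the scaffold gene Mdc1 at -0.56 and Brca2 at -0.73, and after removal at -0.46, -0.38, -0.19 and -0.39; 11 members were then lower and 4 higher.

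Genes for amino acid supply fell, with and without the length trend. The transcription factor ATF4 drives genes for amino acid uptake, synthesis and tRNA charging when amino acids run short. Of 24 such genes 16 were called lower and 5 higher, with a median of -0.18, and after removal of the mRNA length and GC trends 16 were lower and 3 higher, with a median of -0.20. Slc7a5 (ENSMUSG00000040010, GRCm39 chr8:122607889-122634433), a transporter gene for large neutral amino acids, stood at 727 CPM in both Mock libraries and at 439 and 434 CPM in uniSTING (log2 fold change -0.72, SE 0.02, adjusted p = 1.64e-11; -0.58 after removal). Pycr1 and Aldh18a1, of proline synthesis, fell by 0.76 and 0.46, Shmt2, of serine and glycine use, by 0.36, and Asns, asparagine synthetase, by 0.27. The groups did not overlap for any of these, but they were picked as called genes and the share without overlap over all genes is not given. Stress members of the list went both ways. Sesn2, an mTORC1 inhibitor gene, fell by 0.69, Atf5 by 0.43, Trib3 by 0.38 and Cebpb by 0.32. Ddit4, an inhibitor of the growth kinase mTORC1 that low oxygen also induces, went from 250 and 251 CPM to 414 and 398 CPM (0.71, SE 0.03, adjusted p = 7.91e-10), and Ppp1r15a, the phosphatase adaptor that ends the response, rose by 0.41. Atf4 itself rose by 0.15 and Ddit3, which encodes CHOP, by 0.40, and after removal both were not called, at 0.04 and 0.11.

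Cytosolic tRNA synthetases moved with these genes: 12 of 20 were lower and 1 higher, and after removal 11 and 3. Eprs went from 531 and 523 CPM to 366 and 376 CPM (-0.49, adjusted p = 4.08e-10), Iars from 386 and 383 CPM to 275 and 280 CPM (-0.45), and Lars fell by 0.40; after removal they stood at -0.38, -0.36 and -0.37. Aars, at -0.33 before, stood at 0.02 after. Genes for chaperones of the endoplasmic reticulum and for its unfolded protein response were called higher in 16 of 23 cases and lower in 4. DESeq2 called 8 and 4. The 4 lower as fitted were Atf6, Ern1, Herpud1 and Sel1l. Calr, a calcium-binding chaperone gene, rose by 0.36, P4hb and Pdia3, disulfide isomerase genes, by 0.32 and 0.23, and Hspa5, which encodes the chaperone BiP, from 1821 and 1774 CPM to 2025 and 2026 CPM (0.19). Ern1, the stress sensor IRE1, fell by 0.50, or by 0.16 after removal. The counts were then 12 higher and 3 lower.

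Protein turnover genes, many of them short, rose by small amounts. Of 31 proteasome subunits 30 were called higher and 0 lower, with a median of 0.29, and after removal of the mRNA length and GC trends 16 and 3, with a median of 0.07. Psma3, of the core ring, went from 167 and 166 CPM to 232 and 237 CPM (log2 fold change 0.51, 0.36 after removal), and Psmc3, Psma6 and Psmd7 stood at 0.43, 0.35 and 0.38, and at 0.35, 0.02 and 0.20 after. Mitochondrial ribosome subunits were higher in 26 of 32 cases and lower in 0 (median 0.29), and those with the smallest adjusted p were Mrpl20 at 0.78, Mrps21 at 0.73, Mrps7 at 0.39 and Mrpl12 at 0.36 (0.41, 0.25, 0.32 and 0.19 after removal). After removal 13 were higher and 3 lower (median 0.08). Cytosolic chaperones were higher in 19 of 25 cases and lower in 1, and then 12 and 2. Hspe1, a mitochondrial co-chaperonin gene grouped with them, rose by 0.69, Stip1 by 0.31, the constitutive chaperone gene Hspa8 by 0.25 and the chaperonin gene Cct7 by 0.20.

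Of 34 autophagy and lysosome genes 20 rose and 5 fell, and once the mRNA length and GC trends were removed 17 rose and 1 fell. Ctsl (ENSMUSG00000021477, GRCm39 chr13:64507151-64518704), a lysosomal protease gene, went from 770 and 777 CPM to 1038 and 1021 CPM (log2 fold change 0.43, SE 0.02, adjusted p = 1.55e-10), and 0.58 after removal. Npc2, a cholesterol carrier of the lysosome, rose by 0.44, the protease genes Ctsd and Ctsb by 0.28 and 0.25, the cargo receptor gene Sqstm1 by 0.24 and Gabarapl2, an ATG8 family member, by 0.47 (Ctsb 0.38 and Gabarapl2 0.26 after removal). The initiating kinase gene Ulk1 fell by 0.43 and stood at -0.11 after removal, where it was not called.

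Stress programmes downstream of NRF2 and p53 went in both directions. Among 24 NRF2 targets, 15 were higher and 6 lower, and after removal 11 and 6. Nqo1, a quinone reductase gene, went from 7.94 and 7.80 CPM to 17.04 and 18.5 CPM (1.19, adjusted p = 0.000338), Hmox1, heme oxygenase, rose by 0.53, Prdx1 by 0.44, the ferritin genes Fth1 and Ftl1 by 0.33 and 0.20 and Pgd by 0.33; after removal Prdx1 stood at 0.26 and Ftl1 was called lower, at -0.03. The glutathione synthesis gene Gclm and the cystine transporter gene Slc7a11 fell by 0.18 and 0.38 (0.11 and 0.16 after removal). Among 23 p53 targets 9 rose and 2 fell. Mdm2, the ligase that limits p53, went from 74.1 and 78.8 CPM to 107 and 106 CPM (0.49), the death receptor gene Fas rose by 0.71, Ccng1 by 0.31 and Perp by 0.24 (0.10 after removal), and Zmat3 fell by 0.36, or stood at -0.03 after removal. Cdkn1a, the arrest gene of this pathway, stood at 12.5 and 11.03 CPM in Mock and 12.2 CPM in both uniSTING libraries and did not pass (0.08, adjusted p = 0.524).

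**Figure D4:**
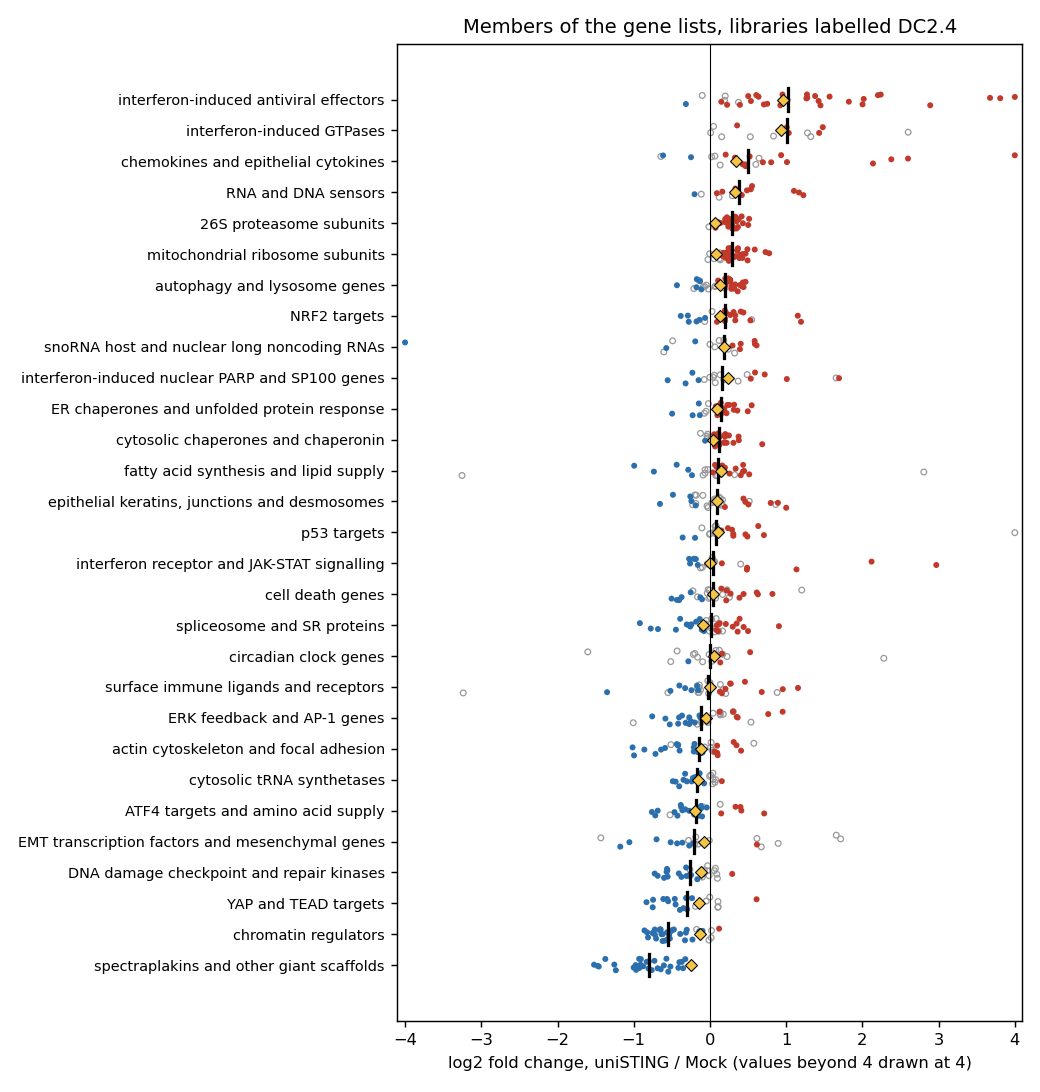
Log2 fold change of uniSTING over Mock for each tested member of 29 gene lists, ordered by list median; filled points were called (red higher, blue lower), open points were not, black bars mark the list medians and yellow diamonds the medians after removal of the mRNA length and GC trends. Antiviral effectors stand at the top with a median of 1.02 that stays at 0.95, and giant scaffolds at the bottom with a median of -0.81 that moves to -0.24.

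Genes of adhesion and cell shape fell more often than they rose. Of 30 actin and focal adhesion genes 16 were lower and 7 higher, and after removal 18 and 3. Myh9, the nonmuscle myosin heavy chain gene, went from 727 and 730 CPM to 360 and 352 CPM (log2 fold change -1.01, SE 0.02, adjusted p = 5.82e-13), and Tln1 and Flna stood at -0.996 and -0.64; after removal Myh9, Tln1 and Flna were at -0.53, -0.45 and -0.13. Actb, with a short coding sequence, went from 4352 and 4373 CPM to 3846 and 3842 CPM (-0.16, and -0.27 after removal). The integrin gene Itga3 fell by 0.59 and DESeq2 did not call it (adjusted p = 0.856). YAP and TEAD, transcriptional regulators that answer to cell tension, had 14 of 22 listed genes lower and 1 higher (median -0.31). After removal 10 were lower and 1 higher. The list holds targets and also regulators, with Yap1, Tead1 and Lats2 among the lower as fitted. Amotl2, a scaffold gene that binds YAP, went from 196 and 203 CPM to 115 and 119 CPM (-0.75, adjusted p = 3.49e-08; -0.53 after removal), Myof and Amotl1 fell by 0.61 and 0.55, the receptor kinase gene Axl by 0.31 and the matricellular target Ccn2 by 0.39. After removal Myof, Axl and Ccn2 stood at -0.30, -0.14 and -0.45, and Amotl1, at -0.06, was not called.

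Epithelial identity genes went both ways, and mesenchymal genes were mostly lower where called. Krt19 (ENSMUSG00000020911, GRCm39 chr11:100031636-100039491), an epithelial keratin gene, went from 67.5 and 65.1 CPM to 128 and 133 CPM, a log2 fold change of 1.00 (SE 0.11, adjusted p = 6.5e-06). Cldn4, a claudin gene of tight junctions, rose from 293 and 301 CPM to 419 and 415 CPM (0.51), and the junction scaffold gene Tjp1 fell by 0.66 (0.39 after removal). In all 7 of 33 were higher and 5 lower, shares near or below those over all genes. The counts were 14 and 9 with the 4 libraries fitted alone, 12 and 9 with limma-voom and 2 and 3 with DESeq2. Several of these genes, Krt8 and Tjp1 among them, had at most 15 counts in each library labelled 4T1, and those libraries share the estimate of spread. Epcam stood at 0.16 (adjusted p = 0.0607) and Cdh1 at -0.20 (adjusted p = 0.0805). Of 20 mesenchymal genes, 8 were lower and 1 higher, or 5 and 0 after removal, 5 and 1 with DESeq2, and 12 and 1 with the 4 libraries alone. Fn1, the fibronectin gene, went from 1903 and 1899 CPM to 840 and 820 CPM (-1.18, SE 0.06, adjusted p = 4.43e-09; -0.69 after removal; not called by DESeq2, adjusted p = 0.406), the transcription factor gene Zeb2 from 41.2 and 41.3 CPM to 25.5 and 24.7 CPM (-0.70) and the filament gene Vim fell by 0.22.

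The remaining lists showed shorter or mixed patterns. Over genes of 10 CPM or more 28.2% were called higher and 30.0% lower. Of 2532 genes of 100 CPM or more, 938 were called higher and 1001 lower. Among 32 feedback and AP-1 genes of the ERK pathway, 13 were lower and 6 higher. Myc fell by 0.40, Etv5 by 0.58 and Dusp5, an ERK phosphatase gene, by 0.53, while the immediate early genes Ier3 and Atf3 rose by 0.95 and 0.76; the counts were 11 and 7 after removal and 11 and 3 with DESeq2. Fatty acid genes were higher in 15 of 29 cases and lower in 5. The acyl-CoA synthetase genes Acsl3 and Acsl4 rose by 0.40 and 0.45, while Fasn, the fatty acid synthase gene, went from 983 and 980 CPM to 480 and 492 CPM (-0.99, adjusted p = 2.2e-12), and Acaca, which supplies its substrate, fell by 0.74; after removal Fasn was at -0.33 and Acaca at -0.27. In the spliceosome 14 of 36 were lower and 13 higher, near the shares over genes of 100 CPM or more. The large U5 subunit genes Prpf8 and Snrnp200 stood at -0.78 and -0.92 and Srrm2 at -0.68. The small Sm gene Snrpg stood at 0.90 (87.6 and 86.8 CPM against 165 and 157 CPM). After removal 21 were lower and 6 higher, with Prpf8, Snrnp200, Srrm2 and Snrpg at -0.39, -0.59, -0.18 and 0.58.

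Death and surface genes moved in both directions. Over all genes 20.8% were called higher and 20.9% lower, and over genes of 10 CPM or more 28.2% and 30.0%. The counts below for death, surface and clock genes, leukocyte markers and transcripts of other tissues lie near or below these shares. Mlkl, of necroptosis, went from 80.7 and 84.8 CPM to 108 and 106 CPM (log2 fold change 0.39, adjusted p = 3.05e-06), Casp4, an inflammatory caspase gene, rose by 0.82 from 32 and 39 counts, and Apaf1 and Bcl2l11, of the mitochondrial pathway, fell by 0.50 (0.29 after removal) and 0.43; 9 of 28 were higher and 7 lower. The checkpoint ligand gene Cd274, which encodes PD-L1, rose from 24 and 38 counts to 44 and 65 (0.68, adjusted p = 0.0224), and the T cell costimulator gene Tnfsf9 from 47 and 75 to 127 and 130 (0.96). Over the surface list 9 of 32 were higher and 7 lower, with Tnfrsf12a at 0.26, Cd44 at 0.20, Il6st at -0.33 and the NKG2D ligand gene Ulbp1 at -0.40. After removal Cd44 stood at 0.32, and Tnfrsf12a (0.04) and Il6st (0.05) were not called. Long noncoding RNAs had 7 of 18 higher and 3 lower. Neat1, the scaffold of paraspeckles, went from 184 and 182 CPM to 275 and 268 CPM (0.59), Snhg8 and Zfas1, hosts of small nucleolar RNAs, rose by 0.61 and 0.39, and 2900097C17Rik fell by 0.57. Clock genes were called higher in 3 of 18 cases and lower in 1, with Per1 at 0.53, Nfil3 at 0.16, Nr1d2 at 0.14 and Bhlhe40 at -0.28; Nfil3 was not called after removal. Of 22 tested leukocyte markers 4 were higher and 1 lower, with Cd74 at 0.83 (208 and 233 counts against 418 and 437), Cd68 at 0.54 (0.32 after removal), Lcp1 at 0.28 and Itgb2 at -0.21, and of 11 tested transcripts of other tissues 1 was higher and 1 lower.

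The same agent in the libraries labelled 4T1 gave a different response, tested as the difference between the log2 fold changes under each label in 1 model; the comparisons share no library. Over all genes 16.0% had a higher and 15.1% a lower response under the DC2.4 label, and 12.6% were called higher and 15.7% lower under the 4T1 label itself. Among antiviral effectors the response was higher under the DC2.4 label in 19 of 33 and lower in 1, and under the 4T1 label 7 of 33 were called higher and 4 lower, with a median of 0.02. Ifit1 had 11 and 13 counts in Mock and 13 and 11 in uniSTING under the 4T1 label (difference 2.31, SE 0.40, adjusted p = 0.000486). Irf9 stood at 13.1 ± 1.28 and 13.9 ± 0.442 CPM there (SD, n = 2; difference 1.09, SE 0.15, adjusted p = 9.17e-05), and Ddx60 at -0.44 (difference 1.61, adjusted p = 0.000157). Isg15 rose under both labels, from 25 and 27 counts to 58 and 60 under the 4T1 label (1.07), and its difference was 0.20 (SE 0.24, adjusted p = 0.621), which leaves room for a difference either way. Rtp4 had at most 7 counts in each library labelled 4T1, and its difference of 1.18 did not pass (SE 0.53, adjusted p = 0.136).

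Outside the interferon genes the lists differed in kind. Proteasome subunits rose under both labels, 30 of 31 under DC2.4 and 28 of 31 under 4T1, with a higher response in 5 and a lower one in 3. Autophagy and lysosome genes were lower in 21 of 34 cases and higher in 4 under the 4T1 label, and 20 had a higher and 2 a lower response under DC2.4; Sqstm1 stood at -0.25 under the 4T1 label (difference 0.49, SE 0.03, adjusted p = 8.34e-09). Giant scaffolds were higher in 15 of 31 cases and lower in 4 under the 4T1 label, and 28 had a lower and 0 a higher response under DC2.4. Chromatin regulators had a lower response in 27 of 34 and a higher one in 1, amino acid supply genes in 13 and 5 of 24, and tRNA synthetases in 11 and 3 of 20. Slc7a5 stood at 202 ± 0.471 and 221 ± 5.95 CPM under the 4T1 label (log2 fold change 0.10, difference -0.82, SE 0.03, adjusted p = 3.78e-10). Since the markers of the libraries do not match their labels, a difference between labels is a difference between these libraries.

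**Figure D5:**
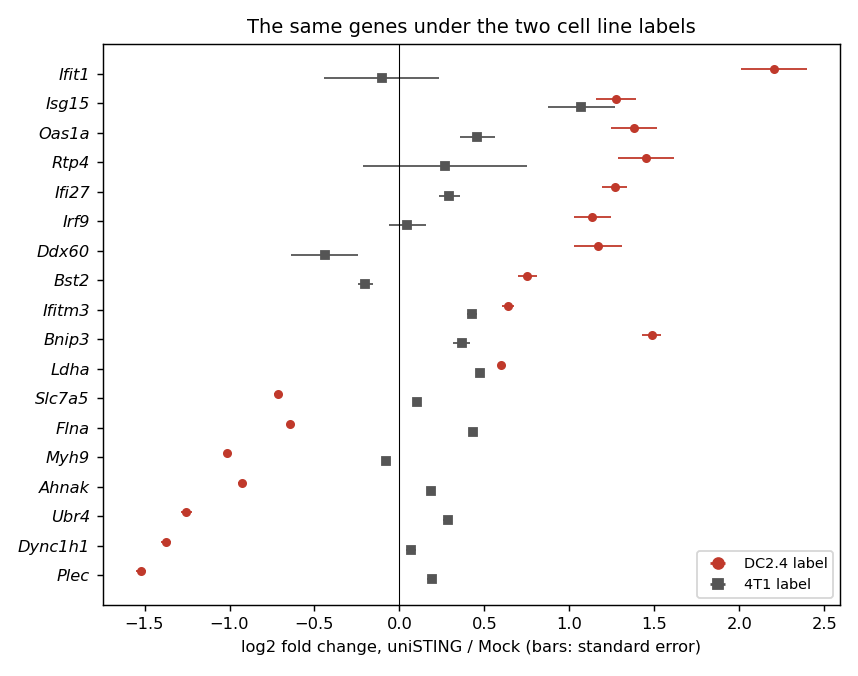
Log2 fold change of uniSTING over Mock with its standard error for 18 genes, under the DC2.4 label (red circles) and under the 4T1 label (grey squares). Ifit1 stands at 2.20 and -0.10, Isg15 at 1.27 and 1.07, and Plec at -1.52 and 0.19; of the genes that fell under the DC2.4 label in this plot, Myh9 was also called lower under the 4T1 label, at -0.08.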

How the data were processed

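Per the labels' protocols, libraries were made from 1.0 µg of total RNA with a NEBNext Ultra kit. The values are raw counts per gene as deposited by the authors. Per the submitters' processing notes the aligner was HISAT2 on GRCm39, and per the file headers featureCounts 2.0.1 then counted the exons of Ensembl release 103 from alignments named unique, with no strand option. Antisense partners and close copies are thus uncertain. Header input names end in L1 for preparation 1 and L2 for preparation 2; what this marks is not stated.

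Counts were tested with edgeR 4.0.16 (TMM factors, filterByExpr, quasi-likelihood F test) in R 4.3.3. All 12 libraries entered, so that the 6 groups share the estimate of spread, with Benjamini-Hochberg adjustment over 14863 genes at 0.05. The common biological coefficient of variation was 3.05%. CPM are over deposited totals, and ± is the SD of 2 libraries. Length trends were removed by loess offsets per library, on exonic length from the files or on mRNA length and GC content of the longest coding transcript in GENCODE M21, an annotation of an earlier assembly used for lengths alone. In the second removal extreme mRNA lengths and GC contents were set to a limit before fitting. The longest transcripts thus received the correction of that limit, which may be too small for them. The second removal and the sizes within preparations were chosen after seeing the data.

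Genes named were the 12 largest rises and falls by fold at 10 CPM or more, the 10 largest by CPM in each direction, the 4 members of each list with the smallest adjusted p, members described for their role, and 6 differences in each direction; a few of these genes are not reported here. The rankings by fold and by CPM were of called genes and left out unnamed gene models, pseudogenes, antisense and mitochondrially encoded genes. The ranking by fold also asked for the same direction in both preparations. Members described for their role or singled out as exceptions were picked after their values were seen. The members and the 31 lists were chosen with earlier results of these data known. Intervals and floors cover counting error only. Alternatives were DESeq2 1.42.0, limma-voom (limma 3.58.1), other scalings and filters, the 4 libraries alone, the preparation as a block and leaving out each library. The procedure was tested on simulated data, where the share of false calls exceeded the nominal 0.05, so the called counts may hold more false calls than that threshold states. Figures were made with Python 3.11.15 and matplotlib 3.10.9.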

Additional observations from a re-analysis of the deposited data

Results flagged for a closer look

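Differences between the responses under the DC2.4 and the 4T1 label, each tested as an interaction in edgeR, were called for 2377 genes in the higher and 2251 in the lower direction. Among the genes with the smallest adjusted p for a higher difference were the ribosomal protein genes Rpl35 (1.06 on the log2 scale), Rpl37 (1.32) and Rpl38 (1.31), the ferritin gene Fth1 (0.43) and the processed pseudogene AC122453.1 (1.66). These 5 genes rose under the DC2.4 label and fell under the 4T1 label, where Rpl38 stood at -0.60 and Fth1 at -0.10.

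Among the lower differences they were Flna (-1.07), Plec (-1.71), Ubr4 (-1.54), Ahnak (-1.11), Dync1h1 (-1.44) and Myh9 (-0.94). Under the 4T1 label, Flna was called higher at 0.43, Ubr4 at 0.28, Plec at 0.19 and Ahnak at 0.18, Myh9 was called lower at -0.08 and Dync1h1, at 0.07, was not called. Transcript length moved with these differences: the 3 ribosomal protein genes are short and the 6 genes that fell are long, and with the mRNA length and GC trends removed the named differences kept their direction and call, from 0.31 (Fth1) to 1.01 (Rpl37) and from -0.43 (Ahnak) to -0.805 (Plec). Because mRNA length was capped in that removal, the differences of the longest genes may be corrected too little. AC122453.1 kept its value of 1.66, having no coding transcript on which to adjust.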

How the results depend on the processing

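Against 3094 higher and 3102 lower genes, a 2-fold minimum in the test left 12 and 8. Changes of at least 2-fold, 325 higher and 217 lower, numbered 174 and 107 with DESeq2 and 180 and 99 with a filter of 1 CPM in 2 of the 4 libraries. Differences of responses, 2377 and 2251, numbered 31 and 21 with the 2-fold minimum, and those of at least 2-fold, 373 and 283, numbered 248 and 165 with DESeq2; the cause of the DESeq2 counts was not tested. Leaving out each library gave 2302 to 2521 higher, 2434 to 2588 lower, 208 to 287 and 130 to 182 of at least 2-fold, and for the differences 1898 to 2094, 1877 to 1971, 285 to 373 and 227 to 258. Lgals1 reversed to -0.0217 with the exonic length trend removed (-0.0217 with the replicate block) and to -0.0725 with the mRNA length and GC trends removed (-0.07246 with the block). Of 731 values of named genes under alternatives, 687 kept direction and call, 40 lost the call and 4, all of Lgals1, reversed. DESeq2 lost Hspg2, Fat1, Fn1 and Itga3. Among the values of named genes and of named differences, 41 did not pass the 2-fold minimum. Of 1054 counts over lists under alternatives, 816 stayed within 1.5 times. With the preparation number as a replicate block 3212 genes were higher and 3202 lower, and 8 of 13 interferon-induced GTPases were higher where 5 were without it. Deviations of the same-numbered Mock and uniSTING libraries correlated at 0.529, but with 2 numbers per group the pairing is not shown. Genes below 10 CPM rest on few counts, and changes in them are the least certain.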
